A study of Arabidopsis thaliana with 8 samples.

Results

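Of the 18855 genes listed for seedlings of Arabidopsis thaliana, 63 stood at a similar, raised level in both lines that overexpress a stabilised form of the transcription factor SPEECHLESS (SPCH). The genes were chosen from genotype means of the deposited signal. A member had means of at least 5 in both overexpressors, each at least 3 times the wild-type mean, and a ratio of the overexpressor means between 0.67 and 1.5. Its lowest overexpressor library also lay above both wild-type libraries, which held for 18.6% of all listed genes. The level was met by 13428 genes, the fold as well by 174, the ratio as well by 109, and all criteria by 63, which is 0.334% of the listed genes.

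Whole seedlings, 12 days old and untreated, were profiled by RNA-seq in 3 genotypes grown on MS medium in long days. The wild type (WT) had 2 samples. The line called SPCHΔ49 here, with 3 samples, carried 35S:SPCHΔ49, a truncated SPCH behind the 35S promoter of cauliflower mosaic virus, which is active in most cell types and not confined to the epidermis. The line SPCHΔ49 basl-2, also with 3 samples, carried the same construct together with the basl-2 mutation. Nothing in the labels says whether each genotype is 1 line or several, or that replicates were grown apart, and the spread behind each p-value may be technical. The series set out to find regulators of stomata from these plants, which per its design text form too many cells of the stomatal lineage.

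SPCH is a basic helix-loop-helix protein that starts the stomatal lineage in the young epidermis. MAP kinases phosphorylate it and so mark it for degradation, and the truncated form escapes this control. BASL is a polarity protein that sits at one side of the cell before an asymmetric division of the lineage and gathers the MAP kinase module there. The lineage ends in paired guard cells, whose genes for ion transport and transcription are well known. SPCH had a mean signal of 6.92 ± 1.8 (SD, n = 2) in WT, 2491 ± 135.7 (n = 3) in SPCHΔ49 and 407.2 ± 74.9 (n = 3) in SPCHΔ49 basl-2, so the signal of SPCH differed several-fold between the overexpressors, whereas the members' means, by the rule, did not.

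The signal carries the name TPM in the files, but it summed to between 852202 and 1075376 per library. The number of reads behind a value is therefore unknown. Libraries of different genotypes deviated together in pairs. Over all listed genes, the first pair, SPCHΔ49 replicate 1 and SPCHΔ49 basl-2 replicate 2, deviated from their genotype means with a Pearson r of 0.77, across genes, which are not independent replicates. The replicate 3 pair, SPCHΔ49 replicate 3 and SPCHΔ49 basl-2 replicate 3, did so with an r of 0.76, and over the 63 members r was 0.88 and 0.82. Between a library of one pair and a library of the other, r was -0.73 and -0.71. Deviations from a genotype mean cancel out within the genotype, so this opposition follows in part from how they are computed. It is not a separate observation. These values do not show which pair is unusual. Counts for the members as a whole and for the phosphate, salicylic acid, cold and touch lists are given without the first pair and without the replicate 3 pair. Other list and family counts are given with all libraries only, and their dependence on the pairs is not stated. Root markers were low in both overexpressors. The summed signal of 13 of them ran from 320.4 to 341.2 in WT, from 15.6 to 33.6 in SPCHΔ49 and from 11.9 to 27.9 in SPCHΔ49 basl-2, and 10 of the 13 stood below 10% of WT in each. The root hair expansin EXPA18 was listed at 0 in all 6 overexpressor libraries. The part of this difference in the levels below was not tested. In whole seedlings a change in the number of cells of a type and a change in RNA per cell cannot be told apart.

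Regulatory sequence upstream of a few members is shown first, because the short motifs in it are taken up at the end. Each run is the 250 bases before the gene start annotated by RefSeq on TAIR10.1, written 5′ to 3′ on the gene's own strand. The full evening element, AAAATATCT, is bound by clock factors of the MYB-like family. In the first 3, capitals mark AAATATCT, which lacks its first A, or the reverse complement, under the name evening element. In the next, they mark CGCG, the core of the box bound by calmodulin-binding CAMTA factors. In the last, they mark P1BS, GNATATNC, the site of the phosphate starvation regulator PHR1.
RBCX1 (chr4:2118618-2118867, minus strand): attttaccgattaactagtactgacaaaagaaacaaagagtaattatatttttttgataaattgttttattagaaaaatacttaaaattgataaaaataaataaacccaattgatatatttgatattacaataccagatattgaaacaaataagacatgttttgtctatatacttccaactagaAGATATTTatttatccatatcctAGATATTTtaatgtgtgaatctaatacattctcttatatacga
CCL (chr3:9827432-9827681, plus strand): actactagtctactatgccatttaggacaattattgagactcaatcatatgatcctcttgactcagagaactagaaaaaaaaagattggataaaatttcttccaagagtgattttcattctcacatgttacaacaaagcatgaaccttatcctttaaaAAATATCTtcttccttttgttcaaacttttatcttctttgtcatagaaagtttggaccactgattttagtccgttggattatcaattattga
DREB1C (chr4:13016236-13016485, minus strand): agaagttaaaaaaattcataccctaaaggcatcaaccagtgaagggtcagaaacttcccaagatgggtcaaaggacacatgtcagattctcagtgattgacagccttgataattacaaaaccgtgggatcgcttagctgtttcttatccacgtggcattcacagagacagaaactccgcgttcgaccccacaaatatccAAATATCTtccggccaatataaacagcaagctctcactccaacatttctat
CML23 (chr1:24771394-24771643, minus strand): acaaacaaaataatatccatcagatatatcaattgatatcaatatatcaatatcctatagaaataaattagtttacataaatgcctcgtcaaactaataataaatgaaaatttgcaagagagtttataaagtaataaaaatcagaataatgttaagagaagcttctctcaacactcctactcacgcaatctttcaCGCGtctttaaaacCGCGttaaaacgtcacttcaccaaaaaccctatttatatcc
GDPD1 (chr3:350011-350260, minus strand): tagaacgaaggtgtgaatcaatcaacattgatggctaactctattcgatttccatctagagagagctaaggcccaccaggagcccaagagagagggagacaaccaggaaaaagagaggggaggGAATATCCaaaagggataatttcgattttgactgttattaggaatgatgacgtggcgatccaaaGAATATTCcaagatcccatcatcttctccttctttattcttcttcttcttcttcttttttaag
RBCX1, an assembly chaperone of Rubisco, held 2 matches of AAATATCT, and CCL and DREB1C held 1 each. CML23, a calmodulin-like protein, held 2 CGCG cores, and GDPD1, a lipid-remodelling enzyme, held 2 P1BS matches.

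The 62 members with a WT signal above 0 had folds over WT between 3.04 and 119.2 in SPCHΔ49, with a median of 4.37, and between 3.14 and 151.8 in SPCHΔ49 basl-2, with a median of 4.3. Over all 63 members the median of the WT means was 4.56, against 13.2 over all listed genes, and the fold criterion itself favours a low WT mean. The members' medians were 20.4 in SPCHΔ49 and 21.6 in SPCHΔ49 basl-2, against 13.4 and 13.0 over all listed genes. The ratio of the overexpressor means ran from 0.692 to 1.5. The separation from WT also varied. The lowest overexpressor library was 1.07 to 7.66 times the highest WT library, and at least 2 times it in 37 of 62 members. In limma's test of all listed genes, 50 of the 63 passed a Benjamini-Hochberg adjusted p of 0.05 as higher in SPCHΔ49 than in WT, where 9.9% of all genes did and 27.2% passed in either direction. For SPCHΔ49 basl-2 the count was 51, where 12.6% of all genes passed as higher and 34.3% in either direction, and 48 passed in both, where 6.37% of all genes did. Between the overexpressors 0 members passed at the adjusted threshold, where 5.41% of all genes did. The members were selected on these contrasts, so nothing is read from these counts, and the 13 and 12 members that did not pass are part of the description below.

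**Figure D1:**
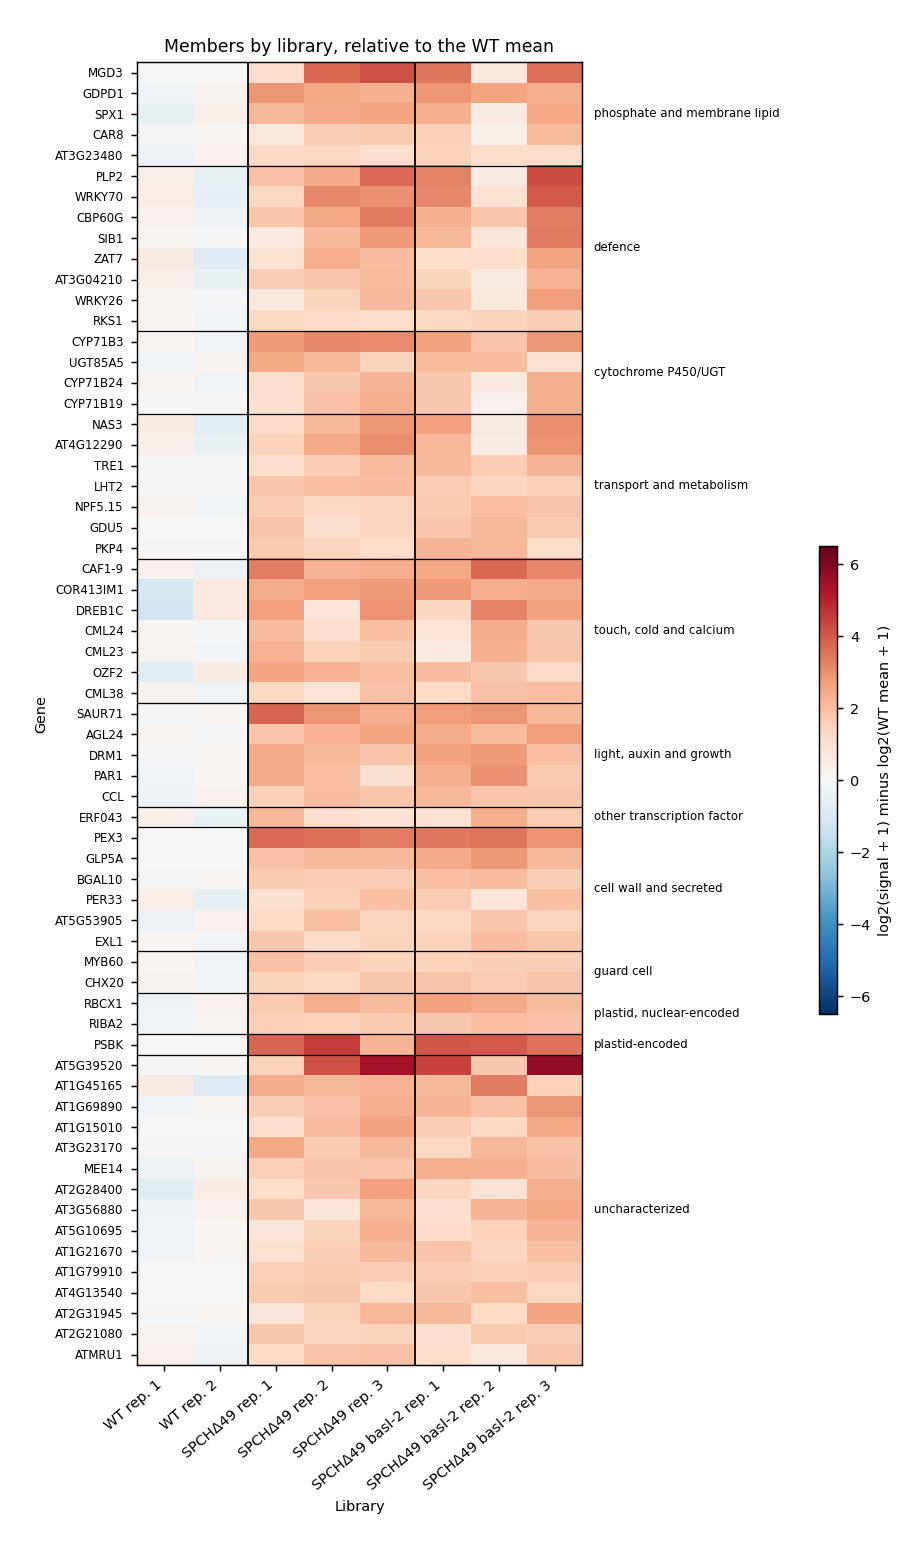
Members by library, as log2(signal + 1) minus log2(WT mean + 1). Rows are the 63 genes in their functional groups, columns the 8 libraries, red above and blue below the WT mean. Members such as PEX3 and GDPD1 are evenly red across the 6 overexpressor libraries, while MGD3, PLP2, WRKY70 and AT5G39520 are pale in SPCHΔ49 replicate 1 and SPCHΔ49 basl-2 replicate 2.

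**Figure D2:**
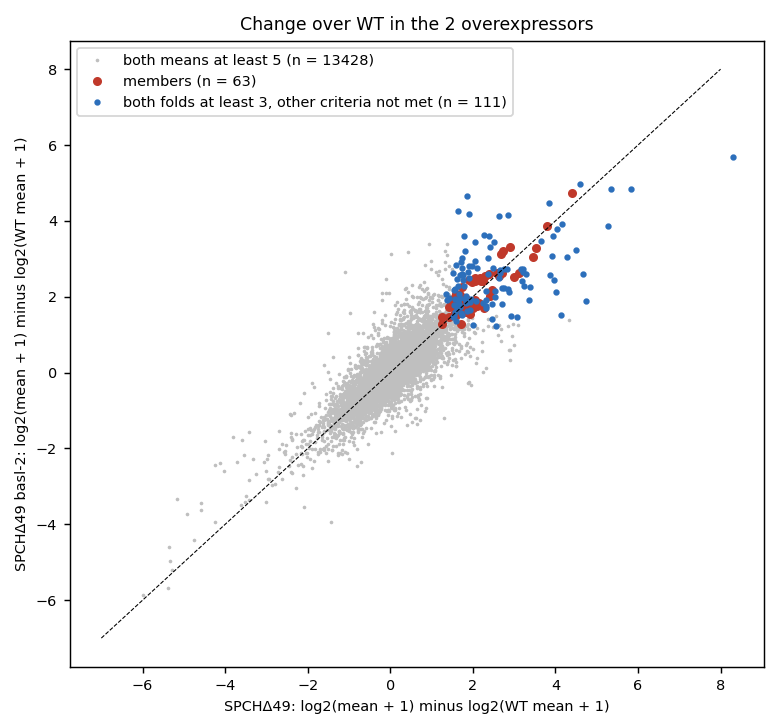
Change over WT in SPCHΔ49 (x axis) against SPCHΔ49 basl-2 (y axis), each as log2(mean + 1) minus log2(WT mean + 1), for the 13428 genes with both overexpressor means of at least 5. Members are red and lie along the dashed line of equal change, as the ratio criterion requires, and blue points are genes with both folds of at least 3 that missed another criterion. Both axes share the WT libraries.

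By function, the 63 comprise 10 transcription factors, 17 enzymes, 3 transporters, 1 receptor-like kinase and 32 other proteins. The guard cell members were MYB60 and CHX20 (AT3G53720), out of 24 listed genes of guard cell function. MYB60 (AT1G08810), an R2R3-MYB factor active in guard cells and needed for normal stomatal opening, had a signal of 12.4 and 9.14 in WT, of 42.7, 35.4 and 31.1 in SPCHΔ49, and of 31.8, 34.8 and 35.0 in SPCHΔ49 basl-2. CHX20, an endomembrane cation/proton exchanger of guard cells, stood at 11.7 and 8.35 in WT, at 28.6, 27.4 and 35.5 in SPCHΔ49, and at 38.2, 34.0 and 39.0 in SPCHΔ49 basl-2. Both were even within each overexpressor, and their 6 overexpressor libraries lay at least at 2.51 and 2.34 times the highest WT library. Of the whole guard cell list, 10 genes rose and 1 fell in SPCHΔ49, and 13 rose and 2 fell in SPCHΔ49 basl-2, at limma's adjusted threshold. MYB60 and CHX20, raised by the rule, are among the risers in both. Over all genes 9.9% and 12.6% rose and 27.2% and 34.3% changed in either direction. These shares are the background for the other list counts too. The list's median log2 fold changes were 0.48 and 0.61, against -0.01 and -0.06 over all genes. No member came from the 29 listed stomatal lineage regulators. Of these, 16 rose and 2 fell in SPCHΔ49, and 6 rose and 2 fell in SPCHΔ49 basl-2. Those that rose include SPCH, which the construct itself carries, and in SPCHΔ49 also BASL, the gene mutated in the other line. The lists were drawn up with earlier results of these data known.

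Genes of phosphate starvation and membrane lipids gave 5 members. GDPD1 (AT3G02040), a glycerophosphodiester phosphodiesterase that frees phosphate from lipid head groups, had a signal of 14.9 and 22.3 in WT, of 143.6, 110.6 and 95.8 in SPCHΔ49, and of 141.4, 116.9 and 100.4 in SPCHΔ49 basl-2. Its overexpressor libraries interleaved and lay apart from WT, with means of 18.6 ± 5.23 (SD, n = 2), 116.6 ± 24.5 (n = 3) and 119.6 ± 20.6 (n = 3). MGD3 (AT2G11810), a galactolipid synthase of the outer plastid envelope, stood at 0.377 and 0.336 in WT, at 2.12, 16.9 and 22.5 in SPCHΔ49, and at 14.3, 1.28 and 15.1 in SPCHΔ49 basl-2. The low libraries were those of the first pair, and MGD3 did not pass the test in either comparison. SPX1 (AT5G20150), a phosphate-dependent inhibitor of PHR1, stood at 6.27 and 12.4 in WT, at 45.5, 56.3 and 60.6 in SPCHΔ49, and at 50.5, 14.0 and 56.9 in SPCHΔ49 basl-2. Here only SPCHΔ49 basl-2 replicate 2 came close to WT, at 1.14 times the highest WT library. CAR8 (AT1G23140), a C2-domain lipid-binding protein, had means of 1.72 in WT, 6.27 in SPCHΔ49 and 6.58 in SPCHΔ49 basl-2 and did not pass either test. AT3G23480, annotated as a cyclopropane-fatty-acyl-phospholipid synthase, had means of 1.74, 5.58 and 5.7 and was the member nearest to the level threshold.

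The wider phosphate list, drawn up after values were seen, held 15 listed genes, of which 3 are members. In SPCHΔ49, SPX1, SPX2, MGD2 and GDPD1 rose, and in SPCHΔ49 basl-2, SPX1, SPX2 and GDPD1 did, with 0 falling in either. Over the 15 genes the median log2 fold change was 1.5 in SPCHΔ49 and 0.9 in SPCHΔ49 basl-2. Without the first pair, 11 of the 15 rose and 0 fell in each comparison, with medians of 1.86 and 1.63. Without the replicate 3 pair 4 and 2 rose and 0 fell, with medians of 1.06 and 0.53, and SPX1 no longer passed both comparisons. PECP1, a phosphatase of the same response that is no member, shows the pattern in its libraries. It stood at 0.468 and 0.728 in WT, at 2.68, 32.3 and 47.1 in SPCHΔ49, and at 31.0, 0.291 and 37.9 in SPCHΔ49 basl-2, so that its lowest overexpressor library fell below WT.

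**Figure D3:**
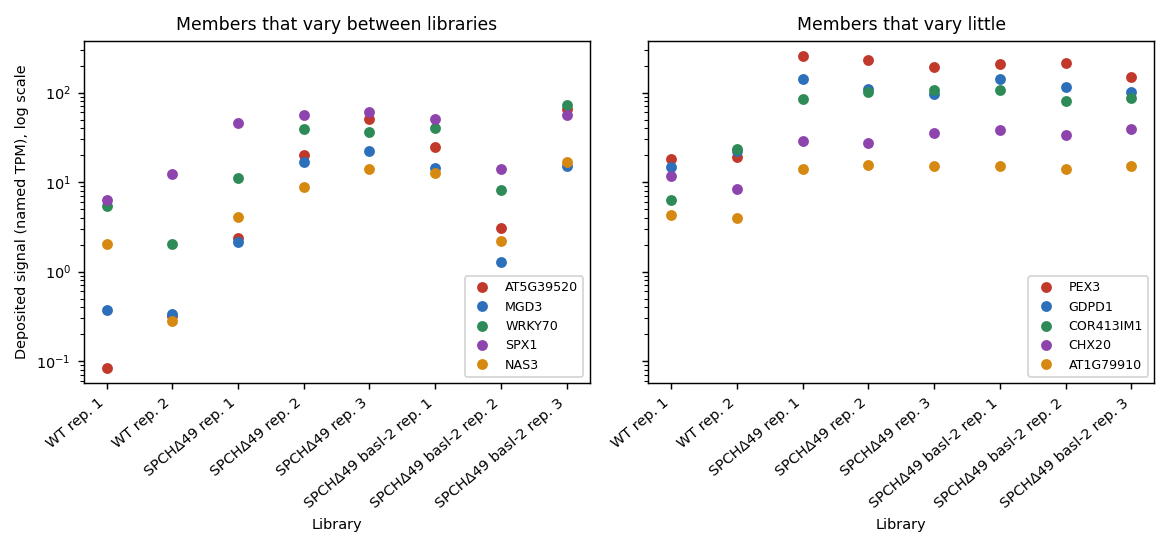
Deposited signal (log axis) of 10 members in each of the 8 libraries, 1 point per library. In the left panel AT5G39520, MGD3, WRKY70, SPX1 and NAS3 are low in SPCHΔ49 basl-2 replicate 2 and, apart from SPX1, clearly lower in SPCHΔ49 replicate 1 than in the other SPCHΔ49 libraries. In the right panel PEX3, GDPD1, COR413IM1, CHX20 and AT1G79910 vary by 1.5-fold or less among the libraries of an overexpressor.

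The 8 members grouped under defence include WRKY70 and CBP60G (AT5G26920), both from the list of salicylic acid defence. WRKY70 (AT3G56400), a transcription factor that acts downstream of salicylic acid, had a signal of 5.36 and 2.05 in WT, of 11.1, 39.6 and 36.3 in SPCHΔ49, and of 39.8, 8.14 and 73.2 in SPCHΔ49 basl-2. CBP60G, a calmodulin-binding activator of salicylic acid synthesis, stood at 3.17 and 1.78 in WT, at 11.2, 19.1 and 34.6 in SPCHΔ49, and at 16.3, 11.1 and 33.4 in SPCHΔ49 basl-2. CBP60G passed the test in both comparisons and kept at least 3.5 times the highest WT library. WRKY70 did not pass in either, and ranged over 3.56-fold within SPCHΔ49 and 8.99-fold within SPCHΔ49 basl-2. PLP2 (AT2G26560), a patatin-like lipid hydrolase induced by pathogens, stood at 3.79 and 1.67 in WT, at 12.8, 19.7 and 47.4 in SPCHΔ49, and at 33.5, 4.49 and 70.4 in SPCHΔ49 basl-2. SIB1 (AT3G56710), a VQ-motif partner of WRKY factors in nucleus and plastid, stood at 0.686 and 0.455 in WT, at 1.47, 5.65 and 9.71 in SPCHΔ49, and at 6.03, 1.73 and 15.5 in SPCHΔ49 basl-2. In PLP2 and SIB1 replicate 3 was the highest library of each overexpressor and the first pair the lowest.

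The zinc finger factor ZAT7 and the WRKY factor WRKY26 did not pass either test. ZAT7 (AT3G46090) had means of 1.11, 6.88 and 6.39, in the order WT, SPCHΔ49 and SPCHΔ49 basl-2, and its WT libraries alone differed 12.3-fold. WRKY26 (AT5G07100) had means of 8.11, 25.2 and 34.3. Of 50 listed WRKY genes, 7 rose and 11 fell in SPCHΔ49, and 9 rose and 8 fell in SPCHΔ49 basl-2. Over all listed genes 9.9% rose in SPCHΔ49 and 27.2% changed in either direction, against 12.6% and 34.3% in SPCHΔ49 basl-2. No family response is read from these counts. AT3G04210, annotated as a TIR-NBS disease resistance protein, had means of 3.8, 16.2 and 13.4 and passed both. RKS1 (AT1G11340), annotated as a G-type lectin receptor-like kinase, was the even one of the group. It stood at 2.04 and 1.46 in WT, at 5.93, 5.52 and 5.33 in SPCHΔ49, and at 6.06, 6.62 and 7.27 in SPCHΔ49 basl-2. Apart from RKS1, the 7 defence members had their lowest SPCHΔ49 value in replicate 1 and their lowest SPCHΔ49 basl-2 value in replicate 2.

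Of the 15 listed genes of salicylic acid defence, 1 rose and 0 fell in each comparison, with median log2 fold changes of 1.21 and 0.72. The gene that rose was the member CBP60G in both, so this count adds nothing beyond the members. After quantile normalization 4 and 3 rose. Without the first pair 9 and 8 rose, and 0 fell, with medians of 1.89 and 1.41. Without the replicate 3 pair 1 rose and 0 fell in each, with medians of 0.87 and 0.21. The summed signal of the list ran from 64.5 to 95.1 in WT, from 101.0 to 588.3 in SPCHΔ49 and from 62.8 to 453.6 in SPCHΔ49 basl-2. The marker PR1, which is no member, stood at 3.72, 59.6 and 158.2 in SPCHΔ49 and at 31.4, 0.0 and 79.3 in SPCHΔ49 basl-2. The highest and the lowest library of each overexpressor were the same for PR1 as for PLP2.

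Touch, cold and calcium signalling gave 7 members, and in 3 of them the first pair was highest. CML24 (AT5G37770, also TCH2) and CML23 are calmodulin-like proteins of closely similar sequence, whose reads could be shared. CML24 had a signal of 31.4 and 26.3 in WT, of 120.9, 62.1 and 115.4 in SPCHΔ49, and of 54.6, 160.8 and 98.9 in SPCHΔ49 basl-2. CML23 (AT1G66400) stood at 3.17 and 2.33 in WT, at 16.8, 9.55 and 11.1 in SPCHΔ49, and at 4.75, 17.6 and 12.3 in SPCHΔ49 basl-2. For both, SPCHΔ49 replicate 1 and SPCHΔ49 basl-2 replicate 2 were the highest libraries of their genotypes. CAF1-9 (AT3G44260, also CAF1a), a deadenylase that shortens poly(A) tails, stood at 10.2 and 6.16 in WT, at 89.7, 41.8 and 46.8 in SPCHΔ49, and at 51.3, 121.9 and 78.5 in SPCHΔ49 basl-2, with the same libraries highest. CML38 (AT1G76650), a calmodulin-like protein of hypoxia and wounding responses, had means of 3.77, 11.8 and 14.8, and its highest library was replicate 3 in both overexpressors. Of 28 listed calmodulin-like genes named CML, 4 rose and 3 fell in SPCHΔ49, and 6 rose and 3 fell in SPCHΔ49 basl-2. The shares over all genes were 9.9% and 12.6% higher, and 27.2% and 34.3% in either direction, and these family counts were not tested.

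DREB1C (AT4G25470, also CBF2), a cold-induced AP2 factor, stood at 0.846 and 5.91 in WT, at 26.8, 6.69 and 32.7 in SPCHΔ49, and at 10.7, 40.5 and 25.9 in SPCHΔ49 basl-2. Its SPCHΔ49 replicate 2 was only 1.13 times WT replicate 2, and it passed the test in SPCHΔ49 basl-2 but not in SPCHΔ49. COR413IM1 (AT1G29395), a cold-regulated protein of the inner plastid envelope, stood at 6.33 and 23.7 in WT, at 85.4, 101.3 and 106.3 in SPCHΔ49, and at 106.8, 80.2 and 88.1 in SPCHΔ49 basl-2. Its lowest overexpressor libraries were those of the first pair, but the libraries of each overexpressor agreed to within 1.33-fold, while the WT libraries differed 3.74-fold. OZF2 (AT4G29190), a zinc finger protein of abscisic acid and salt responses, stood at 19.1 and 48.6 in WT, at 202.0, 163.7 and 135.8 in SPCHΔ49, and at 138.2, 115.6 and 80.8 in SPCHΔ49 basl-2. In all 3 of these genes WT replicate 2 was the higher WT library.

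Among 8 listed genes of cold and CBF response, 2 of them members, 3 rose and 1 fell in each comparison. The median log2 fold changes were 0.71 and 0.35. COR413IM1 and ZAT12 rose in both. The other riser was SCRM (also ICE1), itself a listed stomatal lineage regulator, in SPCHΔ49, and DREB1C in SPCHΔ49 basl-2. Without the first pair 3 and 2 rose and 1 fell in each. Without the replicate 3 pair 3 rose in each and 3 and 2 fell. KIN1, a cold- and dehydration-induced gene that is no member, fell, from 36.1 and 80.8 in WT to between 0.175 and 3.86 in SPCHΔ49 and between 0.411 and 2.63 in SPCHΔ49 basl-2. Among 7 listed touch and calcium genes, 5 rose in SPCHΔ49 and 7 in SPCHΔ49 basl-2, with median log2 fold changes of 1.7 and 1.71. Of these listed genes 4 are members, raised by the rule, so the counts and medians are no separate support. Without the first pair 4 and 5 rose, as did 4 and 5 without the replicate 3 pair, where CML23 and CML24 no longer passed both comparisons. The xyloglucan-modifying enzyme gene TCH4, no member, stood highest in the same libraries as CML24, at 236.2 in SPCHΔ49 replicate 1 and 516.4 in SPCHΔ49 basl-2 replicate 2. Both lists were drawn up after values were seen.

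The most abundant members belong to light, auxin and growth responses. DRM1 (AT1G28330), a dormancy-associated protein, had a signal of 364.6 and 434.6 in WT, of 2187, 1746 and 1466 in SPCHΔ49, and of 2468, 2725 and 1528 in SPCHΔ49 basl-2. CCL (AT3G26740), a transcript known for clock-controlled mRNA stability, stood at 291.1 and 435.9 in WT, at 1084, 1486 and 1292 in SPCHΔ49, and at 1648, 1270 and 1258 in SPCHΔ49 basl-2. Both were well separated from WT, with the lowest overexpressor library at 3.37 and 2.49 times the highest WT library. SAUR71 (AT1G56150), of the SMALL AUXIN UP RNA family, stood at 4.87 and 6.0 in WT, at 86.4, 46.4 and 31.7 in SPCHΔ49, and at 41.5, 46.6 and 27.8 in SPCHΔ49 basl-2. PAR1 (AT2G42870), an atypical helix-loop-helix protein that restrains shade avoidance, stood at 12.9 and 16.1 in WT, at 83.2, 58.5 and 30.8 in SPCHΔ49, and at 79.0, 119.7 and 48.9 in SPCHΔ49 basl-2. For DRM1, SAUR71 and PAR1 replicate 3 was the lowest library of each overexpressor. AGL24 (AT4G24540), a MADS factor that promotes flowering, went the other way, with replicate 3 highest, at 2.2 and 1.75 in WT, at 9.24, 13.4 and 16.6 in SPCHΔ49, and at 14.9, 11.3 and 18.7 in SPCHΔ49 basl-2. ERF043 (AT4G32800), an AP2 factor outside these groups, stood at 2.83 and 1.29 in WT, at 12.8, 5.81 and 4.84 in SPCHΔ49, and at 5.15, 15.0 and 8.71 in SPCHΔ49 basl-2. It was highest in the first pair and passed the test in SPCHΔ49 basl-2 only, which does not show that the overexpressors differ.

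Cell wall and secreted proteins gave 6 members, all past the test in both comparisons, as were 48 of the 63 members and 6.37% of all genes. The members were selected on these contrasts, so nothing is read from this count. PEX3 (AT2G15880), a leucine-rich repeat extensin named from pollen, had a signal of 18.3 and 19.3 in WT, of 254.5, 233.9 and 194.5 in SPCHΔ49, and of 208.6, 216.1 and 147.8 in SPCHΔ49 basl-2. Its folds of 12.1 and 10.1 came with the widest gap to WT of all members, 7.66 times between the lowest overexpressor and the highest WT library. GLP5A (AT5G39190, also GER2), a germin-like protein with near-identical relatives, stood at 7.64 and 7.59 in WT, at 31.7, 35.9 and 35.9 in SPCHΔ49, and at 46.2, 59.8 and 35.6 in SPCHΔ49 basl-2. BGAL10 (AT5G63810), a beta-galactosidase that trims xyloglucan, stood at 11.5 and 13.4 in WT, at 43.3, 40.9 and 40.5 in SPCHΔ49, and at 51.0, 52.3 and 39.6 in SPCHΔ49 basl-2. The SPCHΔ49 libraries of GLP5A and BGAL10 differed by 1.13- and 1.07-fold, far less than the step from WT. EXL1 (AT1G75880), an extracellular GDSL-type lipase, had means of 5.05, 16.3 and 19.7. PER33 (AT3G49110), a class III peroxidase with a near-identical copy, had means of 3.52, 12.4 and 12.3, and AT5G53905, annotated as prolamin-like, had means of 4.56, 15.8 and 15.0.

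Cytochromes P450 of the CYP71B subfamily and a glycosyltransferase made up 4 members. CYP71B3 (AT3G26220) stood at 6.56 and 4.61 in WT, at 44.1, 55.6 and 54.5 in SPCHΔ49, and at 39.9, 23.0 and 47.9 in SPCHΔ49 basl-2. CYP71B24 (AT3G26230) stood at 4.55 and 3.2 in WT, at 9.93, 15.6 and 21.6 in SPCHΔ49, and at 15.3, 6.44 and 23.3 in SPCHΔ49 basl-2. CYP71B19 (AT3G26170) stood at 4.4 and 5.17 in WT, at 11.3, 20.8 and 29.0 in SPCHΔ49, and at 18.4, 6.04 and 27.8 in SPCHΔ49 basl-2. All 3 were lowest in the first pair, and CYP71B19 did not pass either test. CYP71B24 passed both, but not without the replicate 3 pair. On the reference, CYP71B3 and CYP71B24 are direct neighbours on chromosome 3. CYP71B19 lies on the same strand with 4 protein-coding genes between it and CYP71B3, and tandem copies of this kind can share reads. Of the 23 listed CYP71B genes, 6 rose and 3 fell in SPCHΔ49, and 4 rose and 2 fell in SPCHΔ49 basl-2. Among all genes 9.9% and 12.6% rose, and 27.2% and 34.3% changed in either direction, and the family counts were not tested. UGT85A5 (AT1G22370), a UDP-glucosyltransferase, stood at 10.5 and 15.8 in WT, at 80.5, 61.5 and 37.6 in SPCHΔ49, and at 57.5, 55.6 and 27.3 in SPCHΔ49 basl-2, with replicate 3 lowest.

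Transport and metabolism gave 7 members. LHT2 (AT1G24400), an amino acid transporter, had a signal of 3.16 and 2.74 in WT, of 12.7, 14.5 and 14.9 in SPCHΔ49, and of 11.3, 9.57 and 10.6 in SPCHΔ49 basl-2. NPF5.15 (AT1G22570), of the nitrate and peptide transporter family, stood at 7.6 and 5.19 in WT, at 22.1, 17.8 and 18.5 in SPCHΔ49, and at 23.0, 27.3 and 26.0 in SPCHΔ49 basl-2. Both were even within each overexpressor. NAS3 (AT1G09240), which makes the metal chelator nicotianamine, stood at 2.04 and 0.278 in WT, at 4.12, 8.8 and 14.0 in SPCHΔ49, and at 12.7, 2.19 and 16.7 in SPCHΔ49 basl-2. It did not pass either test, and of its listed relatives NAS1 and NAS4 fell in both comparisons, NAS1 from 47.2 and 57.3 in WT to between 1.33 and 15.2 in the overexpressor libraries. TRE1 (AT4G24040), a trehalase, had means of 3.1, 12.0 and 15.6. GDU5 (AT5G24920), of a family that promotes amino acid export, had means of 3.16, 10.5 and 14.5, and PKP4 (AT3G49160), annotated as a pyruvate kinase, of 4.25, 13.2 and 19.0. AT4G12290, a copper amine oxidase, had means of 2.62, 18.9 and 15.3, and passed in SPCHΔ49 but not in SPCHΔ49 basl-2.

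Members tied to the plastid were RBCX1 (AT4G04330), RIBA2 and PSBK. RBCX1 stood at 2.0 and 3.55 in WT, at 11.5, 17.6 and 14.8 in SPCHΔ49, and at 22.2, 20.1 and 14.8 in SPCHΔ49 basl-2. RIBA2 (AT2G22450), of riboflavin synthesis, stood at 5.07 and 6.77 in WT, at 19.3, 18.8 and 21.6 in SPCHΔ49, and at 22.1, 25.7 and 24.7 in SPCHΔ49 basl-2. Both lay well above WT in all 6 libraries. PSBK (ATCG00070), a photosystem II subunit encoded in the plastid genome, was listed at 0 in both WT libraries, at 12.6, 22.3 and 3.57 in SPCHΔ49, and at 15.6, 14.8 and 10.7 in SPCHΔ49 basl-2. A value of exactly 0 can be a failed estimate, so no fold is given for it. Markers of photosynthesis did not go with these genes: of 12 listed, 0 rose and 8 fell in SPCHΔ49, and 0 rose and 5 fell in SPCHΔ49 basl-2.

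The remaining 15 members have no well-defined function. AT5G39520, of the DUF1997 family, had the largest folds of all, 119.2 and 151.8, over a WT mean of only 0.204. It stood at 0.0847 and 0.323 in WT, at 2.4, 19.9 and 50.6 in SPCHΔ49, and at 24.8, 3.1 and 64.8 in SPCHΔ49 basl-2, and passed neither test. AT1G79910, annotated as a regulator of Vps4 in the multivesicular body pathway, was the most even member. It stood at 4.29 and 3.94 in WT, at 14.1, 15.4 and 15.1 in SPCHΔ49, and at 15.1, 13.9 and 15.3 in SPCHΔ49 basl-2. MEE14 (AT2G15890) stood at 37.3 and 55.6 in WT, at 137.7, 168.6 and 162.8 in SPCHΔ49, and at 245.6, 238.2 and 189.0 in SPCHΔ49 basl-2, near the lower bound of the ratio. It is the direct neighbour of PEX3 on chromosome 2, on the same strand. AT3G56880, a VQ-motif protein, had means of 28.1, 92.5 and 119.7, and AT5G10695 of 21.5, 69.6 and 73.4. The other 10 had WT means between 1.45 and 10.1 and overexpressor means between 5.9 and 46.3.

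The spread between replicates was wide for many members. The highest library of an overexpressor was 1.81 times the lowest in the median member of SPCHΔ49, against 1.23 over the 13428 genes that met the level, and 1.99 against 1.29 in SPCHΔ49 basl-2. In WT it was 1.41 against 1.09. The rule used means of these same libraries, which a high overexpressor library or a low WT library can carry past the fold. The 13428 genes had only to meet the level. The groups are thus not matched, and no trait of the members is read from the difference in spread. A difference of at least 2-fold occurred in 28 members in SPCHΔ49 and 31 in SPCHΔ49 basl-2, and in 8.45% and 10.3% of the 13428 genes. Both overexpressors stayed under 1.5-fold in 16 of 63 members, and in 68.2% of the 13428 genes. Besides PEX3, GDPD1, COR413IM1, CCL, MEE14, BGAL10 and AT1G79910 those that did were RIBA2, MYB60, LHT2, CHX20, AT2G21080, EXL1, NPF5.15, RKS1 and AT3G23480. All 6 overexpressor libraries reached 3 times the WT mean in 20 of 62 members, while each library taken alone did so in 43 to 56.

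The order of the libraries was shared between the overexpressors. SPCHΔ49 replicate 1 and SPCHΔ49 basl-2 replicate 2 were both lowest in 28 members, 44.4%, where this held for 24.4% of the 13428 genes, and both highest in 15, 23.8%, where it held for 26.0%. Replicate 3 was highest in both in 26 members, 41.3% against 26.7%. The first pattern took in 7 of 8 defence members, 3 of 4 of the P450 and glycosyltransferase group, 3 of 5 of phosphate and membrane lipid, 4 of 7 of transport and metabolism and 8 of the 15 without a known function. It also took in 1 member each of the touch, light and auxin, and cell wall groups, which were COR413IM1, AGL24 and PER33. The second took in 3 members each of the touch group, the light and auxin group, the cell wall group and those without a known function. It further took in NPF5.15 and GDU5 of transport and metabolism, and ERF043. Functional groups were assigned with these values known, and the differences between groups were not tested. Without the first pair, the same rule gave 156 genes, 54 of the 63 among them, and without the replicate 3 pair it gave 70, with 39 of the 63 among them. Without the first pair 59 of the 63 passed as higher than WT in each comparison, where 9.21% and 11.8% of all genes did. Without the replicate 3 pair 46 and 43 passed, where 13.3% and 16.8% of all genes did. Again the members were selected on these contrasts, and nothing is read from the counts. Of the members named by rule, AT5G39520, MGD3, PLP2, WRKY70, NAS3, SIB1, CYP71B19 and WRKY26 passed both comparisons without the first pair, and CML23 and CML38 no longer did. Those that came to pass were lowest in that pair, which was left out after the data were seen. Their passing is therefore no support for them.

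**Figure D4:**
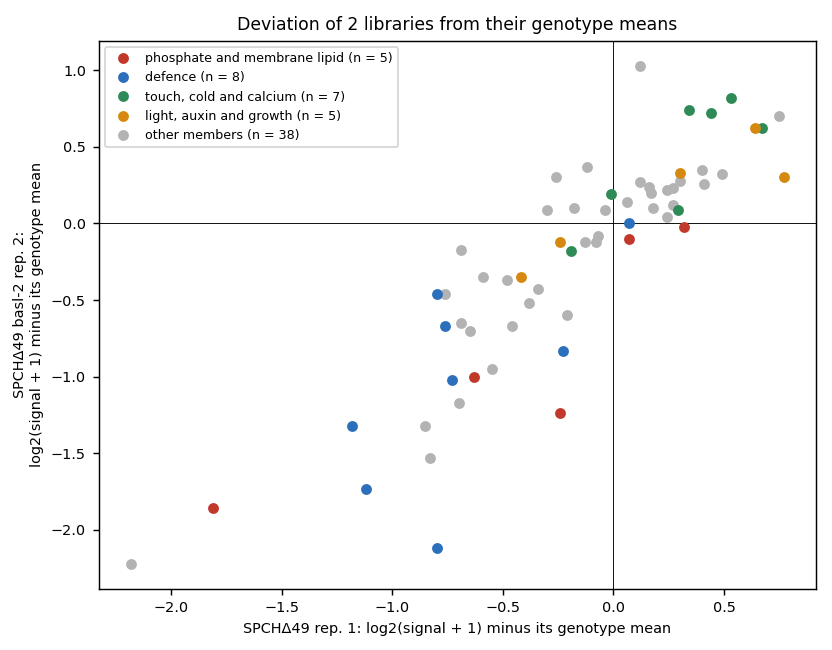
Deviation of SPCHΔ49 replicate 1 (x axis) and SPCHΔ49 basl-2 replicate 2 (y axis) from their genotype means, on the log2(signal + 1) scale, for the 63 members. Defence members, apart from RKS1, and MGD3 lie to the lower left, below 0 in both libraries, and CAF1-9, CML24 and CML23 lie to the upper right.

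The edges of the rule ran through continuous values. CHX20 and NPF5.15 had the smallest folds among the members, 3.04 each, and just outside lay RAP2-3, an ethylene response factor with means of 247.5, 742.0 and 822.9, and AT5G43440, at 2.99. At the lower bound of the ratio AT2G31945 lay inside at 0.692 and BT4 outside at 0.659. At the upper bound OZF2 lay inside at 1.5 and AT5G35480 outside at 1.57. NAS3 had the narrowest gap to WT, at 1.07, and the NAC factor gene NAC047 just failed it, at 0.987. At the level, AT3G23480 lay inside at 5.58 and AT3G55646 outside at 4.91. A further 15 genes met level, fold and gap but stood higher in SPCHΔ49 than the ratio allows, and 32 stood higher in SPCHΔ49 basl-2.

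Position, gene structure and promoter letters were not used by the rule. The reference held 62 of the members, with 18, 9, 16, 8 and 11 on chromosomes 1 to 5, and 7 of them lay within 10 protein-coding genes of another member. Members had fewer exons, with a median of 3 against 5 over 18753 listed genes, and shorter proteins, with a median of 279.5 against 379 residues. Single-exon genes made up 18 of 62, or 29.0%, against 14.3% of listed genes. An annotated gene overlapped 9 members, and a listed gene overlapped 6. Since the library kit does not mark strand, reads of such pairs cannot be told apart. GDPD1 overlapped AT3G02030 on the opposite strand over 681 bases, and that gene's signal was 2.93 and 2.58 in WT and between 3.32 and 5.79 in the overexpressors. AT1G45165 overlapped AT1G45163 over 532 bases, which stood at 11.5 and 12.7 in WT and between 22.3 and 42.7 in the overexpressors. CML24 overlapped AT5G37760, which is not among the listed genes, over 723 bases.

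Motifs were counted on both strands in 300 bases, from 250 before to 50 after the annotated start, in 62 members and 18754 listed genes. AAATATCT, named evening element here although it lacks the first A of the full element, occurred in 10 members, or 16.1%, against 5.88% of all. The members were RBCX1, with 2 matches, CCL, DREB1C, MEE14, EXL1, NPF5.15, GDU5, ERF043, AT3G56880 and AT3G23480. CGCG occurred in 13, or 21.0%, against 13.8%, and CML23, CML24 and ZAT7 held 2 matches each. TTGAC, the core bound by WRKY factors, occurred in 39, or 62.9%, against 50.8%. CANNTG, the E-box recognised by helix-loop-helix factors such as SPCH, occurred in 42, or 67.7%, against 62.4%, and CACGTG, which is 1 form of it, in 5, or 8.06%, against 8.93%. P1BS occurred in 3, or 4.84%, against 6.26%, and these were GDPD1, SPX1 and AT3G23170. CCGAC, the core of the cold element bound by DREB1C, occurred in 5, or 8.06%, against 16.3%, and AAACCCTA in 2, or 3.23%, against 5.55%. These are descriptions of letters in a short window, chosen with the members known, and were not tested.

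**Figure D5:**
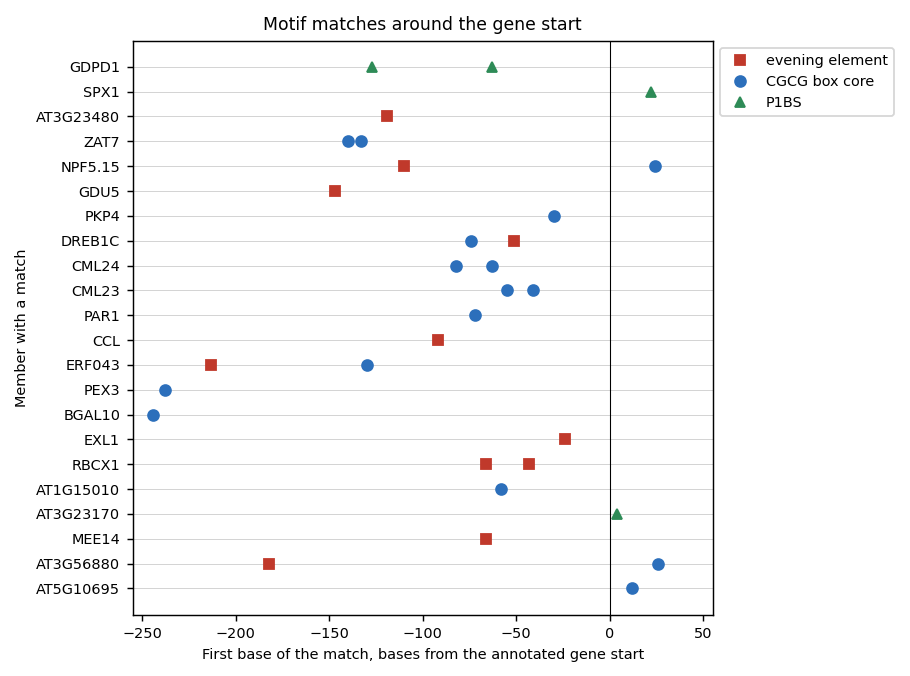
Matches of AAATATCT, labelled evening element, of the CGCG core and of P1BS in members that hold at least 1 of them. Positions are distances in bases of the match's first base from the annotated gene start (vertical line). RBCX1 has 2 matches of AAATATCT and GDPD1 2 of P1BS, all before the start, while the P1BS match of SPX1 lies after it.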

How the data were processed

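RNA of 8 whole-seedling samples in 3 genotypes was sequenced from libraries made with a TruSeq kit, per the labels' protocols. The submitters' processing notes name Trimmomatic 0.38, kallisto 0.44.0 and sleuth. Build, annotation and the summing of transcripts to genes were not given in the sources used here. Deposited files hold a signal per gene under the name TPM, per the file headers. Totals of some libraries lie above the sum that plain TPM always has, and leaving out genes could only lower it. The signal is therefore not plain TPM, as the design had assumed, and the step that changed it is not stated. The series table differed from the files per sample by at most 4.96e-06.

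Genotype means and the rule were computed on this signal. For tests, limma 3.58.1 (R 4.3.3) was fitted to log2(signal + 1) of the 8 samples, with a mean for each genotype and an intensity trend, and p-values of the 18855 genes were adjusted by Benjamini-Hochberg. Genes had to reach a signal of 1 in 2 samples, which removed 0. The script was tested on simulated data. Log2 fold changes understate low genes, whereas folds in the text are ratios of means.

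The members, gene lists and tests were chosen with earlier results of these data known, and the phosphate, cold and touch lists and the functional groups after the values were seen. Named members were the most abundant, the most raised, those in lists, those listed at 0, regulators and transporters, those at each threshold, and those of repeated families. Further members were named to cover each functional group. Names came from the files for 45 members and otherwise from the RefSeq annotation of TAIR10.1. The alternatives tried were pseudocount, filter, quantile normalization, rescaling, trend, replicate block, thresholds and leaving out libraries.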

Additional observations from a re-analysis of the deposited data

How the results depend on the processing

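The number of genes that met the rule moved with its settings. It was 63 in the main count, 130 after quantile normalization, 98 after rescaling, 267 at a fold of 2, 28 at a fold of 4, 37 with a narrower window of the ratio, 109 with no requirement on overlap, 156 without SPCHΔ49 replicate 1 and SPCHΔ49 basl-2 replicate 2, and 70 without replicate 3 of both overexpressors. Leaving out these pairs was added after seeing the data. With genotype medians it was again 63, of which 47 were shared. Leaving out 1 library gave 56 to 97, with 97 without WT replicate 1 and 96 without SPCHΔ49 basl-2 replicate 2.

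Counts of calls depended on the libraries too. The main counts were 5120 for SPCHΔ49 against WT, 6458 for SPCHΔ49 basl-2 against WT and 1020 between the overexpressors. Leaving out 1 library gave 1121 to 5636, 1624 to 7052 and 151 to 1242, and without the first pair the last count was 254. Without the replicate 3 pair the counts were 6203, 7862 and 741. Without WT replicate 1 the members passing as higher numbered 27 and 31, where 2.12% and 3.16% of the 18132 genes tested did. Without WT replicate 2 they numbered 27 and 32, where 2.35% and 3.5% did. In both fits the lone WT library is assumed to vary like the other groups. Rescaling moved the median log2 fold change of SPCHΔ49 against WT from -0.01 to 0.12. Higher calls made up 36.5% of the calls there, 51.1% after quantile normalization and 56.8% after rescaling. In SPCHΔ49 basl-2 they made up 36.9%, 49.4% and 44.4%, and between the overexpressors 37.9%, 35.9% and 23.3%.

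The replicate numbers do not pair the samples, with deviations of same-numbered SPCHΔ49 and SPCHΔ49 basl-2 libraries correlating at -0.17, -0.09 and 0.76. The fit with the replicate number as a block gave 6446, 8045 and 1494 calls, with 48, 49 and 0 members among them. Depth is unknown, so the precision of low values cannot be stated.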
